A study of Homo sapiens with 8 samples.

Results

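Epithelial cells adhere to each other through cadherins, desmosomes and tight junctions and build their cytoskeleton on keratins, whereas mesenchymal cells carry vimentin, N-cadherin and an interstitial matrix and move singly. The shift from the former to the latter state is called epithelial-mesenchymal transition. It is driven by transcription factors of the ZEB, SNAI and TWIST families, which repress epithelial genes such as the gene of E-cadherin, and it is opposed by factors of the GRHL and OVOL families. The 48 genes described here mark these states. They comprise 35 epithelial genes and 13 mesenchymal genes, out of 43317 gene names on the array. The members were chosen by name, with results of these arrays known, and ESRP1, TMEM125 and MAL2 were selected for being among the lowest log2 ratios in HCT116 cells. The values of the HCT116 arrays are therefore given as a description, with no test.

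RNA was measured on 8 Agilent 2-colour arrays of 1 slide. Each array set RNA of transfected cells, labelled with Cy5, against RNA of mock cells of the same line that received no transfection, labelled with Cy3. Transfection used a lipid reagent. miR-139-5p and miR-139-3p were each transfected into the renal cancer lines A498 and 786-O (1 array per line), siRNAs 1 and 2 against GINS1, a subunit of a DNA replication complex, into the breast cancer line MDA-MB-231 (1 array each), and miR-490-5p and miR-490-3p into the colorectal cancer line HCT116 (1 array each). The mock carried no control RNA, so an effect of transfection itself cannot be told apart from that of the small RNA. The labels do not say whether both arrays of a line shared 1 mock extract, and p-values measure only the spread between these arrays. No dyes were swapped. By the scanner software's flag, an array had 24983 to 29687 of its 58201 probes well above background in Cy3 or Cy5. The log2 ratio of GINS1 was -1.31 with siRNA 1 and -1.92 with siRNA 2, against values between -0.11 and 0.55 on the other 6 arrays. Of the fixed tissue markers, 5 of 7 renal genes (among them PAX8 and PAX2) were above background in both renal lines, though PAX8 was so in all 4 lines and PAX2 also in HCT116. Of 8 colorectal markers, 3 were above background in HCT116 (CDX1, CDX2 and MYB), of which CDX1 was so in every line and MYB in all but A498, while VIL1, LGALS4 and GPA33 were not. In MDA-MB-231, 4 of 7 breast markers were above background (GATA3, ESR1, TFF1 and ERBB2), and 3 of these 4, all but GATA3, were so in every line.

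The 4 transfected miRNA strands carry different seeds, the bases 2 to 8 that pair with target RNAs. They are shown because these RNAs are the treatments behind 6 of the 8 arrays. The mature sequences, from RefSeq, are printed 5′ to 3′ with the seed in capitals.
miR-139-5p: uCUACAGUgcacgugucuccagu
miR-139-3p: uGGAGACGcggcccuguuggagu
miR-490-5p: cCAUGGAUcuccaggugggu
miR-490-3p: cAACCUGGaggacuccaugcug
Both strands of miR-139 come from chromosome 11 and both strands of miR-490 from chromosome 7 (GRCh38.p14). The 60 bases of each array probe were the transcript sequence used here, so a seed match was searched there only, on the transcript's strand. Of the 71 probes of the members, 1 held the 7 letters that pair with the miR-139-5p seed (ACTGTAG), against 186 of 58201 probes in all (0.32%). That probe stands for AXL, a receptor tyrosine kinase of mesenchymal cells, and the stretch is shown with the match in capitals (hg19, plus strand, chr19:41767409-41767438).
AXL: tctaaccctatACTGTAGtattctttgggg
The log2 ratio of AXL with miR-139-5p was -0.17 in A498 and 0.01 in 786-O. No member probe held the 7-letter matches of miR-139-3p (CGTCTCC), miR-490-5p (ATCCATG) or miR-490-3p (CCAGGTT), which 0.168%, 0.448% and 0.39% of all probes held. This says only that these letters are not in the probes.

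The mock channels set HCT116 apart from the other lines in epithelial and mesenchymal genes. HCT116 carried the highest level of 32 of 35 epithelial genes and of none of the 13 mesenchymal genes. A level here is the normalized log2 intensity of the Cy3 channel, and the mean of both mock channels of a line was taken as 1 sample. Both mock channels of a line differed by a standard deviation of between 0.07 (MDA-MB-231) and 0.10 (A498) over the genes measured, and by at most 0.27 for any member, so the differences of 1 log2 unit or more counted below exceeded that spread. No test was made, since each line is 1 sample. The background correction added an offset of 50 to the intensities, which draws folds against a dim line toward 1. The folds below hold for that setting only. Where a probe was not well above background on either mock channel of a line, the level there is a bound, and a fold is given as at least the level in the bright line over the higher of the probe's own signal and the lowest signal of probes well above background.

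**Figure D1:**
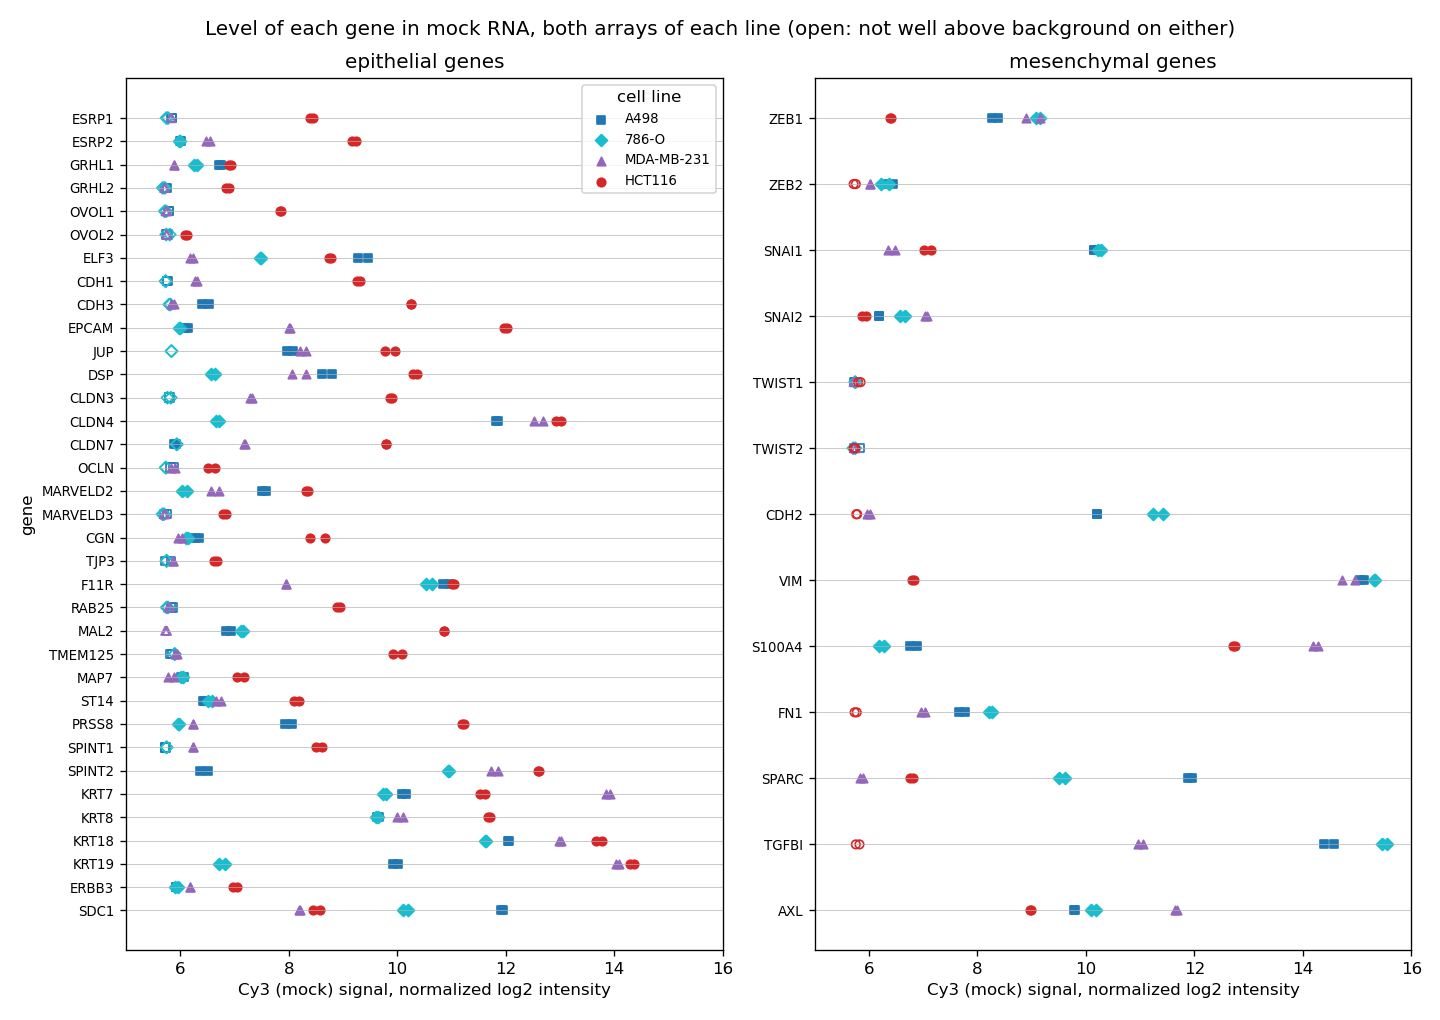
Normalized log2 intensity of the mock (Cy3) channel for 35 epithelial genes (left) and 13 mesenchymal genes (right), with both arrays of each of the 4 cell lines as points. The red HCT116 points lie to the right of all others for 32 epithelial genes and at the left end for VIM and TGFBI, and open points mark lines in which the gene was not well above background.

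All 35 epithelial genes were well above background on both mock channels of HCT116, compared with 25 in MDA-MB-231, 22 in A498 and 19 in 786-O. Relative to MDA-MB-231, 25 of 35 epithelial genes were at least 1 log2 unit higher in HCT116, where 6.07% of 21503 genes measured in either line were that much higher, and 1 (KRT7) was that much lower, against 6.67%. Relative to A498 the counts were 26 higher and 1 (SDC1) lower, against 8.14% and 8.1% of all genes. Relative to 786-O they were 28 higher and 1 (SDC1) lower, against 7.32% and 7.11%. The median difference of the epithelial genes was 1.69 log2 units over MDA-MB-231, 1.85 over A498 and 2.24 over 786-O, compared with medians of 0.01, 0.04 and 0.03 over all genes. A second list of 32 epithelial junction, polarity and transcription factor genes gave smaller differences. Relative to MDA-MB-231, 7 of its 26 measured genes were at least 1 log2 unit higher in HCT116 and 3 lower (median 0.44). Relative to A498, 13 of 27 were higher and 1 lower (median 0.90). Relative to 786-O, 12 of 27 were higher and 1 lower (median 0.64).

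The mesenchymal genes ran the other way. Relative to HCT116, 7 of the 11 measured mesenchymal genes were at least 1 log2 unit higher in MDA-MB-231, 7 of 11 in A498 and 8 of 11 in 786-O. Of all genes, 6.67%, 8.1% and 7.11% were that much higher. The median differences of HCT116 from these lines were -1.16, -1.93 and -2.71. A second list of 30 mesenchymal genes differed less. In the same order, 7 of 24, 7 of 25 and 11 of 24 measured genes were that much higher, and 0, 1 and 1 that much lower. Its medians were -0.57, -0.68 and -0.75. The calcium-binding gene S100A4 was the 1 mesenchymal member that was at least 1 log2 unit higher in HCT116 than in the renal lines. TWIST1 and TWIST2 were not well above background on any mock channel. ZEB2, CDH2, FN1 and TGFBI were also not above background in HCT116. Between the other lines the median differences of the measured members were smaller. MDA-MB-231 differed from A498 by 0.25 (epithelial) and -0.34 (mesenchymal), and from 786-O by 0.41 and -0.47. A498 differed from 786-O by 0.40 and -0.36.

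Among the splicing and transcription factors, ESRP1 separated HCT116 from the rest. ESRP1 encodes an epithelial splicing regulator, and its probe lies on chromosome 8. Its level was 8.45 and 8.39 in HCT116 and between 5.74 and 5.85 in the other 3 lines, where it was not above background. HCT116 thus exceeded A498 by at least 5.93-fold, 786-O by at least 5.90-fold and MDA-MB-231 by at least 6.002-fold. GRHL2, OVOL1 and OVOL2 were likewise above background in HCT116 and not in the other lines.

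The junction and adhesion genes fell into graded patterns. CDH1, the gene of E-cadherin, stood at 9.26 and 9.32 in HCT116, 6.31 and 6.27 in MDA-MB-231, and not above background in either renal line. HCT116 exceeded MDA-MB-231 by 7.997-fold and each renal line by at least 10.8-fold. EPCAM, an adhesion molecule of epithelia, stood at 11.98 and 12.03 in HCT116, 8.01 and 8.03 in MDA-MB-231, 6.14 and 6.09 in A498, and 5.99 and 5.97 in 786-O. Its order was HCT116, MDA-MB-231, A498 and 786-O, with a last step of 0.13 log2 units that was small beside the others.

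The claudins, which seal tight junctions, did not share 1 pattern. CLDN3 followed CDH1, with 9.90 and 9.87 in HCT116, 7.32 and 7.28 in MDA-MB-231 and no signal above background in the renal lines. CLDN7 stood at 9.79 on both HCT116 channels, 7.18 and 7.19 in MDA-MB-231, and between 5.89 and 5.94 in the renal lines, where it was above background on 1 of the 4 mock channels. Their claudin relative CLDN4 stood at 12.92 and 13.02 in HCT116, 12.53 and 12.68 in MDA-MB-231, 11.83 and 11.85 in A498, and 6.71 and 6.66 in 786-O. The low level of CLDN4 was thus that of 786-O, which lay 35.7-fold below A498, the other renal line.

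MAL2, which acts in transport to the apical membrane, stood at 10.87 and 10.86 in HCT116, 7.12 and 7.16 in 786-O, 6.93 and 6.84 in A498, and was not above background in MDA-MB-231. HCT116 exceeded 786-O by 13.2-fold and MDA-MB-231 by at least 33.9-fold. TMEM125, a predicted membrane protein, stood at 10.09 and 9.91 in HCT116 and 5.90 and 5.95 in MDA-MB-231, and was not above background in the renal lines. HCT116 exceeded MDA-MB-231 by 16.9-fold in TMEM125. ESRP1, MAL2 and TMEM125 were thus each highest in HCT116, the line whose ratios chose them.

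Of the surface proteases and their inhibitors, SPINT2 and PRSS8 differed between the renal lines. The level of SPINT2, an inhibitor of serine proteases, was 12.62 and 12.61 in HCT116, 11.73 and 11.86 in MDA-MB-231 and 10.94 and 10.95 in 786-O. In A498 it was 6.52 and 6.37, which was 22.6-fold below 786-O. PRSS8, the membrane serine protease prostasin, stood at 11.19 and 11.24 in HCT116, 7.92 and 8.07 in A498, 6.23 and 6.24 in MDA-MB-231 and 5.97 and 5.95 in 786-O. PRSS8 was thus higher in A498 than in 786-O, by 4.10-fold, and SPINT2 lower.

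The epithelial genes that were not highest in HCT116 were KRT7, SDC1 and ELF3, an epithelial ETS factor that read 9.45 and 9.28 in A498 and 8.78 and 8.74 in HCT116. KRT7, a keratin of simple epithelia, was highest in MDA-MB-231 (13.92 and 13.86), ahead of HCT116 (11.62 and 11.53), A498 (10.10 and 10.15) and 786-O (9.79 and 9.74). KRT19 reached 14.29 and 14.36 in HCT116 and 14.09 and 14.04 in MDA-MB-231, with 9.93 and 10.02 in A498 and 6.82 and 6.71 in 786-O. The KRT19 levels of HCT116 and MDA-MB-231 lay within 0.26 log2 units of each other, while those of A498 and 786-O were 9.24-fold apart. SDC1, the heparan sulfate proteoglycan syndecan-1, ran 11.92 and 11.94 in A498, then 10.11 and 10.20 in 786-O, 8.57 and 8.44 in HCT116 and 8.21 and 8.19 in MDA-MB-231. A498 exceeded HCT116 by 10.7-fold in SDC1.

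Of the mesenchymal effectors, VIM and TGFBI gave the widest contrasts. VIM, the gene of the filament protein vimentin, stood at 15.31 and 15.33 in 786-O, 15.05 and 15.13 in A498, 14.97 and 14.73 in MDA-MB-231, and 6.79 and 6.82 in HCT116. Each of the other lines exceeded HCT116 by between 263.0-fold (MDA-MB-231) and 364.9-fold (786-O) in VIM. TGFBI, a matrix protein induced by TGF-beta, stood at 15.47 and 15.55 in 786-O, 14.57 and 14.38 in A498 and 11.05 and 10.96 in MDA-MB-231. It was not above background in HCT116, which 786-O exceeded by at least 817.0-fold.

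CDH2, SPARC and S100A4 each had their own order of lines. CDH2, the gene of N-cadherin, read 11.24 and 11.43 in 786-O, 10.21 and 10.20 in A498, but 5.96 and 6.01 in MDA-MB-231 and not above background in HCT116. SPARC, a matrix glycoprotein, was at 11.96 and 11.89 in A498, followed by 9.50 and 9.62 in 786-O, 6.81 and 6.76 in HCT116 and 5.88 and 5.83 in MDA-MB-231, where 1 of both mock channels was above background. S100A4 was high in MDA-MB-231 (14.27 and 14.18) and HCT116 (12.74 and 12.71) and low in A498 (6.76 and 6.89) and 786-O (6.19 and 6.28). CDH2 and SPARC were thus high in the renal lines, and S100A4 in the other two.

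The mesenchymal transcription factors were also divided. SNAI1 read 10.27 and 10.22 in 786-O, 10.15 and 10.16 in A498, and 6.36 and 6.48 in MDA-MB-231 and 7.15 and 7.02 in HCT116. SNAI2, its paralog, was highest in MDA-MB-231 (7.03 and 7.06), followed by 786-O (6.66 and 6.56), A498 (6.19 and 6.18) and HCT116 (5.95 and 5.88). ZEB1 was lowest in HCT116 (6.41 and 6.39) and lay between 8.27 and 9.15 in the other lines.

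On the 1 array of each miR-490 strand in HCT116, most of the 48 genes lay within 1 log2 unit of mock. A few epithelial genes lay below that. With miR-490-5p, 4 of the 35 epithelial genes had a log2 ratio of transfected over mock at or below -1 (ESRP1, CLDN3, CLDN7 and MAL2), where 1.09% of 21542 genes measured on that array did. With miR-490-3p, 3 of 35 did (ESRP1, CLDN3 and TMEM125), where 0.672% of 21864 genes did. ESRP1, MAL2 and TMEM125 are counted among these because they were selected for low values here, so the counts only describe the arrays. Apart from them, CLDN3 (-1.16) and CLDN7 (-1.19) remain with miR-490-5p, and CLDN3 (-1.35) with miR-490-3p. No member lay at or above 1 on either array, where 0.297% and 0.398% of all genes did. With 1 array per strand there is no replicate check. Both arrays are compared with mock RNA of the same line, possibly the same extract, so their values are set side by side without a count of what they share.

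**Figure D2:**
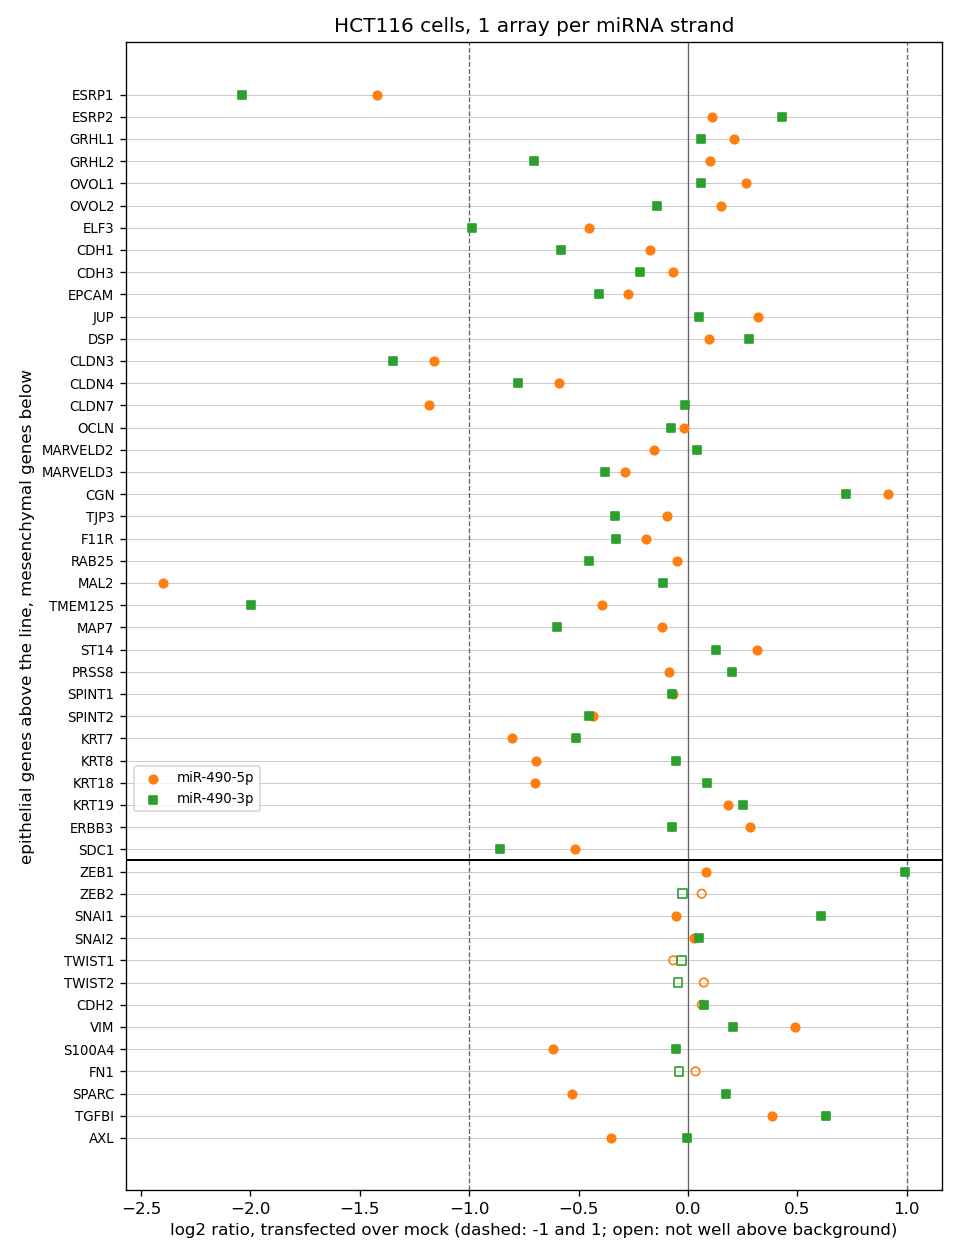
Log2 ratio of transfected over mock RNA in HCT116 for each of the 48 genes, with miR-490-5p as circles and miR-490-3p as squares, 1 array each, and open symbols for genes not well above background. MAL2 is far to the left with miR-490-5p only (-2.40 against -0.12), TMEM125 with miR-490-3p only (3.99-fold below mock, against a log2 ratio of -0.39), and ESRP1 and CLDN3 with both.

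For ESRP1 the log2 ratio was -1.42 after miR-490-5p, or 2.68-fold below mock, and -2.04 after miR-490-3p, or 4.11-fold below. It was measured by 1 probe, which was above background in both channels on both arrays. MAL2 had -2.40 with miR-490-5p, which is 5.27-fold below mock, and -0.12 with miR-490-3p. The other MAL2 probe, which was dimmer, read -0.69 and -0.34, so that the size of the change in MAL2 depends on the probe. TMEM125 had -0.39 with miR-490-5p and was 3.99-fold below mock with miR-490-3p. MAL2 was thus low on the array of one strand and TMEM125 on that of the other, which was not tested.

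The tight junction genes CLDN3, CLDN7 and CLDN4 were below mock with at least 1 strand. In the order miR-490-5p, then miR-490-3p, CLDN3 had -1.16 and -1.35. CLDN7 had -1.19 and -0.01, and CLDN4 had -0.59 and -0.77. The other CLDN4 probe read -0.07 and -0.05. Of the 9 tight junction members, 8 had a ratio below 0 with miR-490-5p (median -0.19) and 7 with miR-490-3p (median -0.33). Of all genes measured, 10025 of 21542 and 10545 of 21864 were below 0. Some of these members lay close to 0, among them OCLN with -0.02 and -0.08. CGN, the gene of the junction plaque protein cingulin, was the epithelial member farthest above 0 with both strands (0.92 and 0.72).

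The promoters of CLDN3, CLDN7 and TMEM125 are shown because repressors of the ZEB and SNAI families bind E-boxes. In HCT116, CLDN3 was at or below -1 with both strands, CLDN7 with miR-490-5p only and TMEM125 with miR-490-3p only. The windows, from RefSeq (GRCh38.p14), run from 250 bases before to 50 after the transcription start, 5′ to 3′ on the gene's strand. Capitals mark the E-box CACCTG or its reverse complement CAGGTG, whose copies cannot overlap each other. CLDN3 lies at chr7:73770221-73770520, minus strand, CLDN7, by its start that holds matches, at chr17:7262429-7262728, minus strand, and TMEM125 at chr1:43269733-43270032, plus strand.
CLDN3: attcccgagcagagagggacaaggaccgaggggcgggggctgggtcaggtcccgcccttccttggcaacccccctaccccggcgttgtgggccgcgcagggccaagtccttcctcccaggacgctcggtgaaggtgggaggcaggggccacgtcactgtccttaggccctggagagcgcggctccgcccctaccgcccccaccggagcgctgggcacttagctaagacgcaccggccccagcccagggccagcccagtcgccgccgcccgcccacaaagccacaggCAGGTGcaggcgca
CLDN7: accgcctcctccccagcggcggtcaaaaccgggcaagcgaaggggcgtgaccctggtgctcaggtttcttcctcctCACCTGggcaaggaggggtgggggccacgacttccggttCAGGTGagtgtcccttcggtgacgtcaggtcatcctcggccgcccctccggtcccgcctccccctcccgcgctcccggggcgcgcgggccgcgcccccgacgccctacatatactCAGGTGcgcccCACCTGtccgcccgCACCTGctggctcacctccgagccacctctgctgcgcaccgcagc
TMEM125: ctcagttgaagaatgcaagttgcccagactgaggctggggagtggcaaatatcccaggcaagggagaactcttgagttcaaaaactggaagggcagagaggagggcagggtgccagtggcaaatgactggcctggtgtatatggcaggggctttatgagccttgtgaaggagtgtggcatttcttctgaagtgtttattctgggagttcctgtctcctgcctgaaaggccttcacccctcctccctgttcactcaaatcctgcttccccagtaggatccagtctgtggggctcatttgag
The CLDN3 window held 1 match and the CLDN7 window 5, and the TMEM125 window and the other CLDN7 start held 0. A window was given for 27 of the 48 members. Of the 17 epithelial genes with a window, 11 held a match in at least 1 window (64.7%), as did 3 of the 10 mesenchymal genes, compared with 24.1% of all 27305 genes. Per window, 20.6% of all 35116 held one. The ratios of CLDN3 and TMEM125 were both low with miR-490-3p, with and without a match, and a match is a description of the letters, not a site.

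The keratins and the remaining named epithelial genes moved less. In the same order of strands, KRT7 had -0.80 and -0.51, and KRT19 had 0.18 and 0.25. The median of the 4 keratins was -0.70 and 0.02. SDC1 had -0.51 and -0.86. The study listed SDC1 among candidate target genes, which needed a predicted site, a fall on the miR-490-3p array and a higher level in colon tumours. The low value of SDC1 there is therefore not independent evidence. In the study's own processing, SDC1 fell by slightly more than 1 log2 unit on that array. EPCAM had -0.27 and -0.41, CDH1 -0.17 and -0.58, SPINT2 -0.44 and -0.45, and PRSS8 -0.08 and 0.20. None of these reached 1 log2 unit in the processing used here.

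The mesenchymal genes stayed within 1 log2 unit of mock with both strands. With miR-490-5p first, SNAI1 had -0.05 and 0.61, while SNAI2 had 0.03 and 0.05. TGFBI had 0.39 and 0.63, and since its mock channel was not above background, the value with miR-490-3p is at least 1.49-fold above mock. VIM had 0.49 and 0.20, S100A4 -0.62 and -0.06, SPARC -0.53 and 0.18, and CDH2, which was above background with miR-490-3p alone, 0.07 there. The members that passed the limit of 1 log2 unit by the least were CLDN3 and CLDN7 with miR-490-5p. Just short of it lay ZEB1 (0.99) and ELF3 (-0.99), both with miR-490-3p. The other ZEB1 probe read 0.38 with miR-490-3p.

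The 35 epithelial genes had median log2 ratios of -0.12 (miR-490-5p) and -0.14 (miR-490-3p), compared with 0.01 and 0.01 over all genes measured. With arrays centred on their median in place of loess, the epithelial median was -0.02 and 0.03, so the sign with miR-490-3p depended on the normalization. The measured mesenchymal genes had a median of -0.01 with miR-490-5p (8 genes) and 0.18 with miR-490-3p (9 genes). Of the epithelial genes, 24 of 35 were below 0 after miR-490-5p, and 24 after miR-490-3p, as were 10025 of 21542 and 10545 of 21864 genes measured. Of the measured mesenchymal genes, 4 of 8 and 7 of 9 were above 0, as were 11517 and 11319 of all genes measured. The second list of 32 epithelial genes held none at or below -1 on either array, and its medians were -0.00 (26 measured) and 0.04 (27 measured). Of the second list of 30 mesenchymal genes, PDGFRB and the hyaluronan receptor CD44 were at or below -1 with miR-490-5p (-1.06 and -1.10), and PDGFRB with miR-490-3p (-1.03). PDGFRB, a growth factor receptor, read between -1.08 and -0.82 on all 8 arrays, whatever was transfected.

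In MDA-MB-231 transfected with siRNAs against GINS1, limma called epithelial CDH1, SPINT2 and KRT7 and mesenchymal SNAI2 lower than mock, and SNAI1 higher. These calls depended on how the spread was modelled, as given below. Of the 48 genes, 28 epithelial and 11 mesenchymal genes were above background on both arrays and could be tested with limma. Of these 39, 4 were called lower, where 3.85% of the 21369 genes tested were, and 1 was called higher, where 3.56% were. By state, 3 of 28 epithelial genes were lower and 0 higher, and 1 of 11 mesenchymal genes was lower and 1 higher. At an unadjusted p under 0.05, 12 of 28 epithelial and 3 of 11 mesenchymal genes passed, as did 5728 of the 21369 genes tested. The median log2 ratio was -0.02 for the tested epithelial genes and -0.01 for the tested mesenchymal genes, compared with 0.01 over all genes. The mesenchymal median differed between the siRNAs, at -0.38 with siRNA 1 and 0.09 with siRNA 2, while the epithelial median was -0.00 and -0.08.

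**Figure D3:**
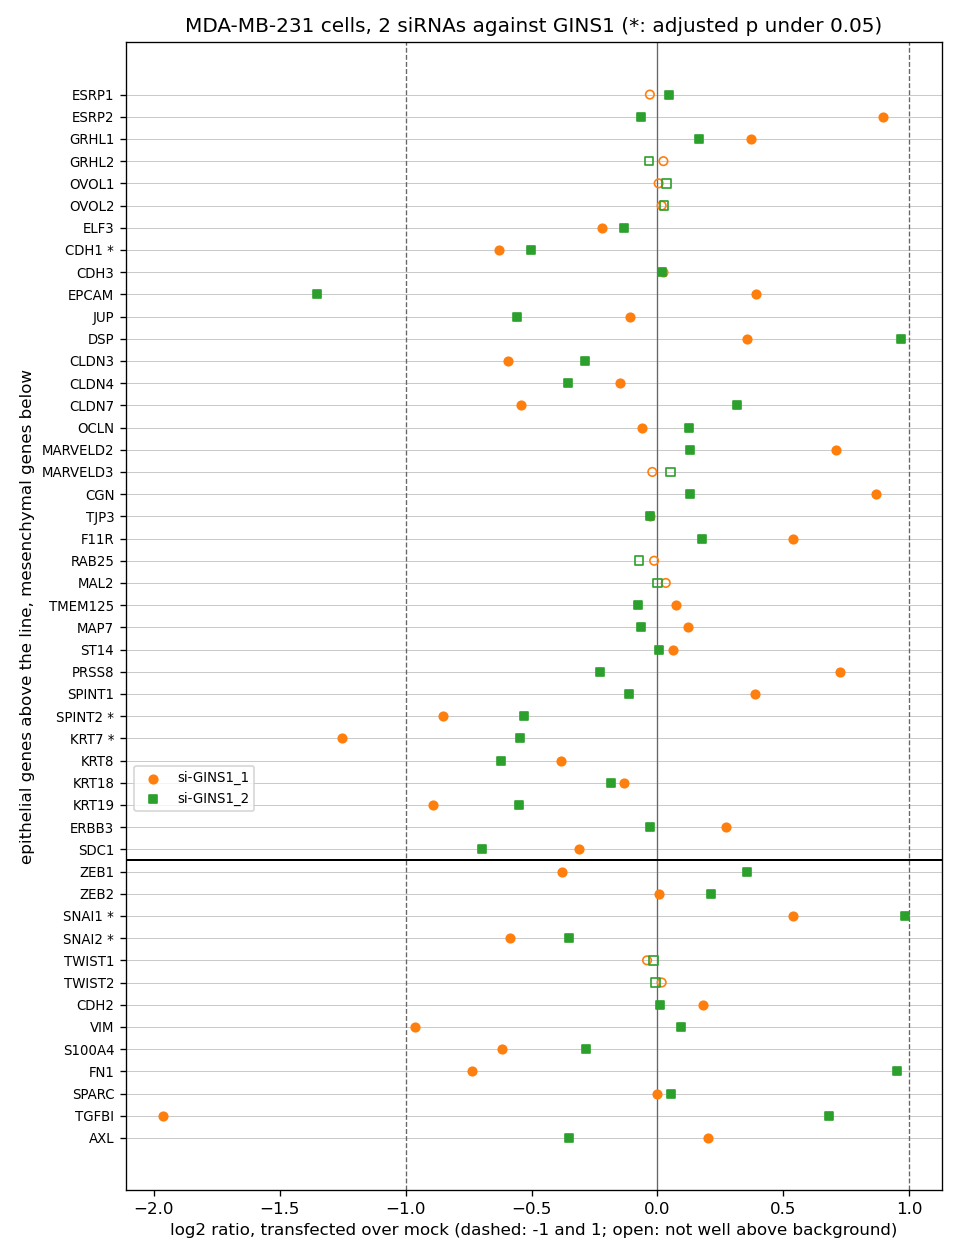
Log2 ratio of siRNA-transfected over mock MDA-MB-231 RNA for each of the 48 genes, with siRNA 1 as circles and siRNA 2 as squares, and an asterisk on the 5 genes with an adjusted p under 0.05 (limma). CDH1, SPINT2, KRT7 and SNAI2 lie left of 0 and SNAI1 right of 0 with both siRNAs, while TGFBI, FN1 and EPCAM lie on opposite sides of 0.

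CDH1 had log2 ratios of -0.63 with siRNA 1 and -0.50 with siRNA 2 (mean -0.57 ± 0.05 SE, n = 2, limma adjusted p = 0.0162). Its Cy5 channel was not above background on either array, so the fall is at least 1.48-fold. CDH1 was also not above background on any renal array, though these arrays enter the spread behind its p. Between the renal lines its standard deviation was 0.022 for the 5p strand of miR-139 and 0.0007 for the 3p strand. The SE and p of CDH1 thus rest in part on dim signals and are a weak measure of how well the fall repeats. The mean of CDH1 was -1.39 with an offset of 10 and -3.01 with the scanner log ratio. SPINT2 had -0.85 and -0.53 (mean -0.69 ± 0.09 SE, n = 2, limma adjusted p = 0.0265). KRT7, whose mock level was higher in this line than in the other lines, had -1.25 and -0.55 (mean -0.90 ± 0.17 SE, n = 2, limma adjusted p = 0.0493). With both siRNAs all 3 epithelial genes lay below mock.

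The SNAI paralogs moved in opposite directions. SNAI1 had 0.54 with siRNA 1 and 0.98 with siRNA 2 (mean 0.76 ± 0.12 SE, n = 2, limma adjusted p = 0.0373). SNAI2 had -0.58 and -0.35 (mean -0.47 ± 0.07 SE, n = 2, limma adjusted p = 0.0304). The 5 calls rest on a spread estimated from the 3 groups with 2 arrays, of which 2 are the miR-139 groups of the renal lines. The miR-490 groups, with 1 array each, add nothing to it. Over all genes, log2 ratios had a standard deviation of 0.39 and 0.33 on the siRNA arrays, compared with 0.10 to 0.18 on the renal arrays. With the cell line as a random block 17 of 39 members were called, the 5 among them, as were 37.8% of all probes tested. No member was called when the fit used these 2 arrays alone or a variance trend with a robust prior, and none of the 5 when the mean of the other lines' arrays was subtracted, which leaves adjusted p between 0.0538 (CDH1) and 0.189 (KRT7). With median centring, which put the median of all genes at 0.18 with siRNA 1, KRT7 had a mean of -0.24 and SPINT2 of -0.15, and neither was called.

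Several members differed between the siRNAs by more than the called genes changed. TGFBI had -1.96 with siRNA 1 and 0.68 with siRNA 2, and EPCAM 0.39 and -1.35. VIM had -0.96 and 0.09. TGFBI and KRT7 with siRNA 1 and EPCAM with siRNA 2 were the members at or below -1, where 2.07% of all genes were with siRNA 1 and 1.29% with siRNA 2. None was at or above 1, where 0.945% and 0.592% were.

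The claudins CLDN3, CLDN4 and CLDN7 were not called. CLDN3 had -0.59 and -0.29 (limma adjusted p = 0.0501), CLDN4 -0.15 and -0.35, and CLDN7 -0.54 and 0.31. KRT19 had -0.89 and -0.55 (limma adjusted p = 0.0648), SDC1 -0.31 and -0.70, and PRSS8 0.72 and -0.23. S100A4 had -0.62 and -0.28, SPARC -0.00 and 0.05, and CDH2 0.18 and 0.01. TMEM125 had 0.07 and -0.08. ESRP1 and MAL2 were not above background on both arrays of this line and were not tested.

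The second lists gave more calls in this line. Of 23 tested genes of the second epithelial list, 4 were called lower, among them LLGL2, CTNNA1 and CTNND1, and 1 higher (CLDN12). Of all genes tested, 3.85% were called lower and 3.56% higher. LLGL2, a polarity gene, had -0.95 and -1.25. The catenins CTNNA1 and CTNND1, which link cadherins to the cytoskeleton, had means of -0.58 and -0.35. Of 24 tested genes of the second mesenchymal list, 5 were called lower and 0 higher, against the same shares of all genes. The receptor TGFBR1 had -1.26 and -0.77 and the splicing regulator MBNL1 -0.90 and -1.65. PDGFRB was also among the 5, with a mean of -1.06, but it read between -1.08 and -0.82 on all 8 arrays, so its call is not particular to this line.

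No member was called with either strand of miR-139 in the renal lines. Of the 48 genes, 31 were tested for each strand (20 epithelial and 11 mesenchymal genes), where limma called 0.0164% of 18262 genes for the former and 0.0% of 17952 for the latter strand. At an unadjusted p under 0.05, 1 of 31 members passed with each strand (KRT8 with miR-139-5p, SDC1 with miR-139-3p). Of all genes tested, 515 of 18262 and 879 of 17952 passed. The replicates of these groups are cell lines, so a change in 1 line alone enters the test as spread. The count of 0 was also reached under each of the 12 alternatives run for each strand.

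**Figure D4:**
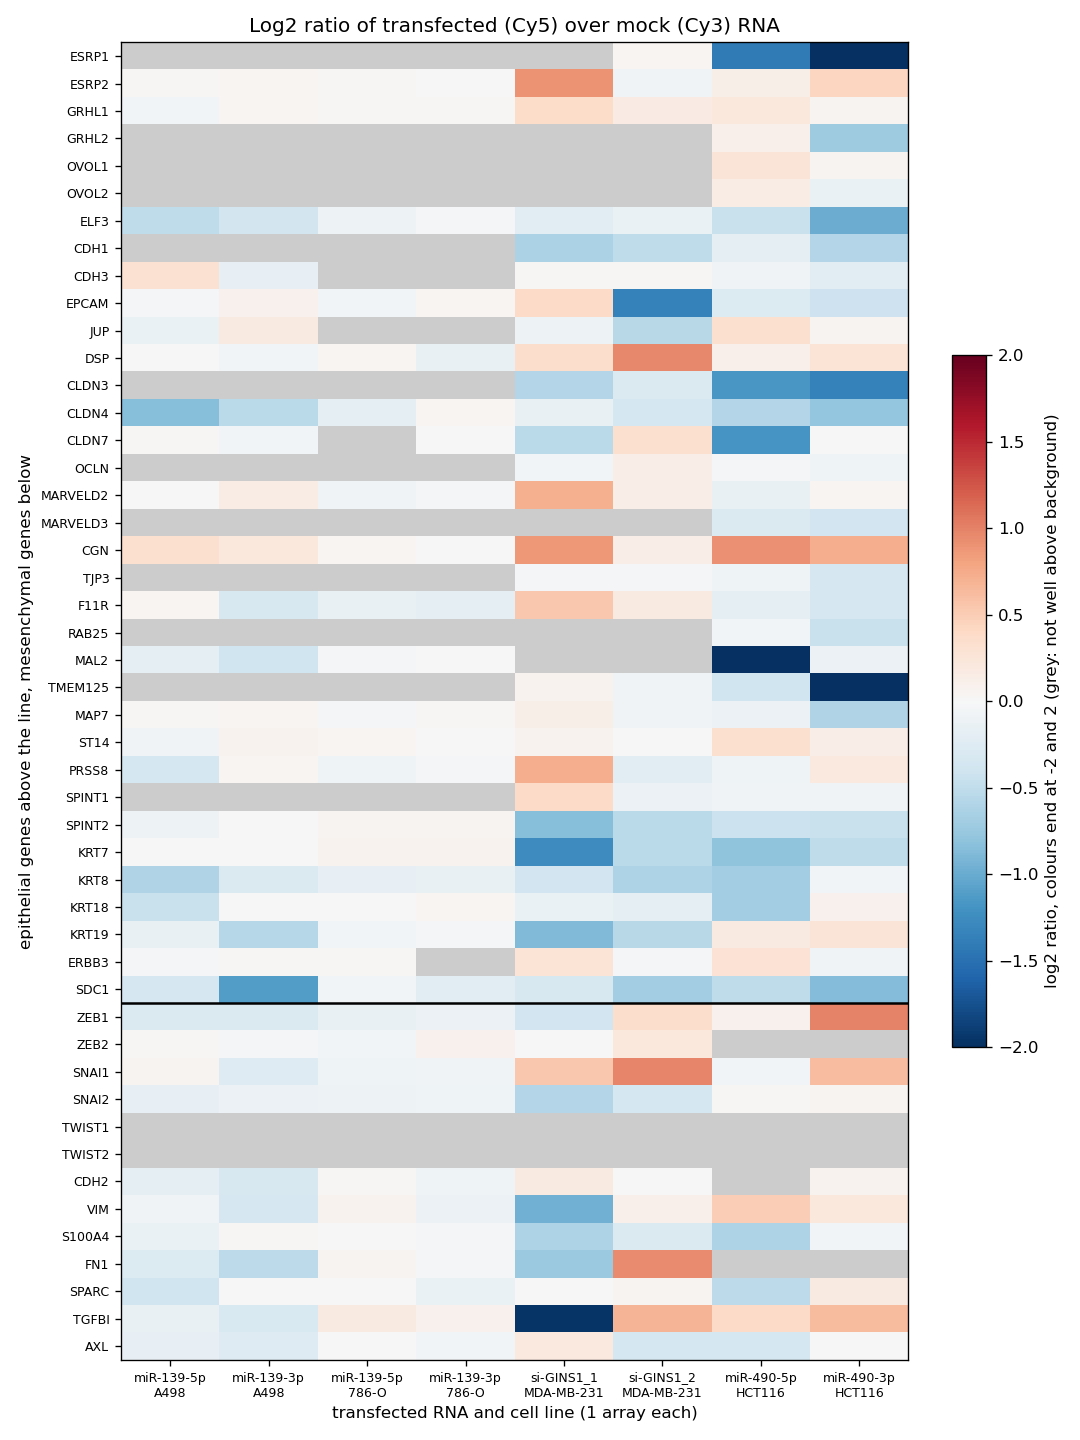
Log2 ratio of transfected over mock RNA for the 48 genes (rows) on the 8 arrays (columns), red above and blue below 0, with grey where the gene was not well above background in either channel. In the 4 renal columns at the left SDC1 with miR-139-3p in A498 (-1.11) is the darkest, and over all columns the darkest blue cells are ESRP1, MAL2 and TMEM125 in HCT116 and TGFBI with siRNA 1.

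The largest member values of the renal lines were in A498. SDC1 had -1.11 in A498 and -0.21 in 786-O on the miR-139-3p arrays, and -0.33 and -0.05 on the miR-139-5p arrays (limma adjusted p = 1.0 for both strands). After subtracting the mean of the other lines' arrays, on which SDC1 was also below 0, the A498 value was -0.67. CLDN4 had -0.86 in A498 and -0.19 in 786-O on the miR-139-5p arrays, and -0.53 and 0.03 on the miR-139-3p arrays. KRT8 had -0.61 and -0.17, then -0.28 and -0.15, in the same order. The other CLDN4 probe read 0.00 on both A498 arrays, so the value depends on the probe.

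The remaining named members stayed within 0.6 log2 units of mock on the 4 renal arrays. In the order miR-139-5p, then miR-139-3p, KRT19 had -0.15 and -0.58 in A498 and -0.05 and -0.02 in 786-O. MAL2 had -0.18 and -0.39 in A498 and -0.03 and 0.00 in 786-O. PRSS8 had -0.35 and 0.04 in A498 and -0.08 and -0.04 in 786-O. EPCAM lay between -0.05 and 0.08, SPINT2 between -0.11 and 0.06, and KRT7 between 0.00 and 0.07. ESRP1, CDH1, CLDN3 and TMEM125 were not above background on any renal array, and CLDN7 was above it on 3 of the 4. For the first 4 of these a fall could not have been seen.

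Most measured mesenchymal genes lay slightly below mock in A498, where none was called. In A498, 9 of 11 measured mesenchymal genes were below 0 with miR-139-5p (median -0.16) and 10 of 11 with miR-139-3p (median -0.26), compared with all-gene medians of 0.01 and 0.01. In 786-O the counts were 5 and 9 of 11, with medians of 0.01 and -0.07. VIM had -0.08 and -0.34 in A498 and 0.06 and -0.11 in 786-O. TGFBI had -0.15 and -0.30 in A498 and 0.17 and 0.08 in 786-O. SPARC had -0.40 and -0.00 in A498 and -0.01 and -0.14 in 786-O. CDH2 had -0.19 and -0.32 in A498 and 0.03 and -0.08 in 786-O. SNAI1 had 0.06 and -0.26, SNAI2 -0.16 and -0.11, and S100A4 -0.14 and 0.02 in A498, and all 3 lay between -0.11 and 0.01 in 786-O. The epithelial medians were -0.05 and -0.00 in A498 and -0.03 and -0.00 in 786-O.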

How the data were processed

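Per the labels, Cy5 carried transfected and Cy3 mock RNA on 8 Agilent arrays. Per the file headers, the authors used Agilent Feature Extraction and deposited spot mean and local background median intensity values, not normalized, and a log10 ratio made by that software, an alternative here. The series value table held the same ratios and was not used.

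Intensities were corrected with normexp (offset 50, which pulls dim ratios toward 0) and loess in limma 3.58.1 (R 4.3.3). Outlier-flagged spots were left out. Where a gene had several probes, that with the highest mean intensity over the 8 arrays stood for it. Groups with 2 arrays were tested against a log2 ratio of 0 (lmFit, eBayes), all 8 arrays being fitted together with a coefficient for each of 5 groups, which left 3 residual degrees of freedom. Genes entered when well above background in a channel on every array of the group. Benjamini-Hochberg adjustment ran over all probes tested, and an adjusted p under 0.05 was called. Mock levels were taken after loess and Aquantile normalization between arrays. The fit was tested on simulated data. Tables and figures used Python 3.11.15, numpy 2.4.6, pandas 2.3.3 and matplotlib 3.10.9.

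Members and lists were chosen with earlier results of these data known. Values on every array are given for ESRP1, TMEM125, MAL2, SDC1, members called, members at least 1 log2 unit from 0 on an array, and the 5 epithelial and 5 mesenchymal members with the widest range of mock level. Of the second lists at most 5 genes each are named, among those called or past 1 log2 unit. Some genes of these lists are not reported here. Any other member was named after its values were seen. Alternatives were the offset, no background correction, median centring, the scanner log ratio, no filter on dim probes, the median of a gene's probes, subtraction of other lines' arrays, fits of the group alone, with a variance trend and robust prior or a random block, and leaving out an array. Promoters and miRNAs came from RefSeq tables (GRCh38.p14), in which 27 of 48 members had a promoter. Probe positions are hg19.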

Additional observations from a re-analysis of the deposited data

Results flagged for a closer look

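SPINT2 and TGFBI differed in sign between the renal lines on the miR-139 arrays. Both A498 arrays were below 0 and both 786-O arrays above 0. In the order miR-139-5p, then miR-139-3p, SPINT2 had -0.107 and -0.005 in A498 and 0.059 and 0.055 in 786-O. TGFBI had -0.15 and -0.30 in A498 and 0.17 and 0.08 in 786-O. Over all genes, the standard deviation on these arrays was 0.10 to 0.18. The mean log2 ratio in A498 minus that in 786-O was -0.11 for SPINT2 and -0.35 for TGFBI. The difference was not tested.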

How the results depend on the processing

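With 1 or 2 arrays a group, no dye swap and possibly shared mock extracts, the spread is poorly known, and values of dim genes move with the background correction. In place of the 5 members called after GINS1 knockdown, the scanner log ratio gave 1 (CDH1). Without the filter on dim probes 3 were called. Median centring gave 5, of which 3 were among the first 5, with DSP and KRT18 in place of SPINT2 and KRT7. Subtracting the arrays of other cell lines gave 1, TMEM125, which was not among the 5. The count was 0 with the group's arrays alone, 0 under a trended variance with robust prior, and 17 with a random block. Leaving out an array gave 15 to 23, where 23.4% and 31.9% of all probes tested were called, the lone array being assumed to vary like the other groups. The causes were not tested. No member was called with miR-139 under any alternative run. In HCT116 with miR-490-5p, the epithelial median of -0.12 was -0.023 with median centring, and 1 mesenchymal gene reached 1 with the scanner log ratio. With miR-490-3p, the epithelial median of -0.14 was -0.26 with an offset of 10, -0.26 without background correction, -0.27 with the scanner log ratio and 0.030, thus reversed, with median centring, and the 3 epithelial genes at or below -1 became 6, 5 and 6 in the first 3 of these settings. The mesenchymal median of 0.18 was 0.33 with median centring, 0.44 with the scanner log ratio, 0.051 without the filter and 0.29 with other lines subtracted, and the 0 mesenchymal genes at or above 1 became 2 with an offset of 10, 2 without background correction, 1 with median centring, 3 with the scanner log ratio and 1 with other lines subtracted. None of the member values recomputed, those of the 5 called genes and of members past 1 log2 unit on an array, changed sign. Mock levels were also recomputed. Epithelial genes at least 1 log2 unit higher in HCT116 than MDA-MB-231, A498 and 786-O numbered 25, 26 and 28. These became 22, 25 and 27 with quantile normalization of the mock channels. With an offset of 10 they were 28, 29 and 32, and with the scanner's processed signal 30, 31 and 33. The strands of miR-139, which share cell lines, were not compared with each other, so no paired fit was run.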
